A study of Mus musculus with 8 samples.

Results

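Macrophage markers and islet inflammation genes are described here in pancreatic islets of ob/ob and ob/+ mice. The 34 genes were taken by name from a list of myeloid markers, complement and MHC class II genes, chemokines, cytokines and regulators of NF-kB. All 34 had a value, among 20715 genes listed in the deposited tables. The study sequenced total RNA from islets of C57BL/6 mice aged 12 weeks, with 4 libraries from ob/ob mice and 4 from ob/+ mice. Animals with both copies of the leptin gene mutated (ob/ob) become obese and insulin resistant, and the ob/+ controls carry the same mutant allele on one copy. Islets were released with collagenase, purified on a density gradient and picked by hand, so each library holds RNA of every cell type in or on the picked islets. Whether each library came from its own mouse is not stated in the labels, so the p-values reflect the spread from library to library, part of which may be technical.

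Islets hold a small resident population of macrophages, which take up and present material from beta cells and carry MHC class II on their surface. These cells depend on the growth factor encoded by Csf1, which signals through the receptor encoded by Csf1r. In obesity, macrophages are known as a source of TNF and IL-1 beta, cytokines that activate the transcription factor NF-kB in beta cells and other islet cells. NF-kB in turn induces chemokines as well as its own inhibitors, among them Nfkbia and Tnfaip3.

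None of the members that could be tested passed the test for a difference, in either direction. The test was limma on log2(FPKM + 1), run on every gene that reached 1 FPKM in 4 or more libraries and called at a Benjamini-Hochberg adjusted p under 0.05. FPKM is a transcript's reads scaled to its length and to the library total. Of the 34 members 23 entered the test, and 11 lay under the filter. Limma called 0 of the 23 higher and 0 lower in ob/ob islets, where it called 8.21% of all 11747 tested genes higher and 10.6% lower. At an unadjusted p under 0.05, 3 of the 23 members (Csf1r, Cd14 and Cxcl16) were lower and 0 were higher, against 19.2% and 12.0% of all tested genes. The median log2 fold change of tested members was -0.15, beside -0.07 over all tested genes. In bulk RNA, fewer cells of a type and less RNA per cell cannot be told apart.

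Facts of the whole series bear on these values. The leptin gene Lep had no value in any library and gives no check of the labels. Insulin transcripts made up 57.1% to 65.6% of all FPKM in ob/ob libraries and 42.0% to 54.3% in ob/+ libraries. Acinar enzyme transcripts, which come from exocrine tissue, made up 3.24% to 11.3% in ob/ob libraries and 7.44% to 25.2% in ob/+ libraries. Absolute depth is unknown, and a rough estimate from the steps between low values put the relative depth of the 8 libraries at 0.972 to 1.02. Another scaling changed the balance of calls over all genes, with 965 higher and 1243 lower as deposited, 475 higher and 7039 lower once acinar genes were excluded from the library totals, and 1276 higher and 621 lower when the 10 most abundant genes were excluded. Over all tested genes the median log2 fold change was then -0.33 and 0.03.

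Library ob/ob 1 was low in most members. It was the lowest of the 8 libraries for 20 of the 23 tested members, and for 16.6% of all tested genes. This was not limited to myeloid genes. Among tested genes, ob/ob 1 was lowest for 12 of 18 other macrophage genes, 6 of 12 endothelial markers and 5 of 9 beta cell markers. It was also lowest for 5 of 10 fibroblast, stellate and pericyte markers, but for 4 of 26 NF-kB and TNF pathway genes and 0 of 35 acinar markers. Library ob/ob 3 was the highest for 11 of the 23, and for 17.2% of all tested genes. The summed FPKM of the 16 macrophage and myeloid identity genes was 34.9, 72.2, 125 and 101 in ob/ob islets 1 to 4, against 88.5, 52.2, 68.0 and 76.4 in ob/+ islets 1 to 4. In summed FPKM the ob/ob values thus spanned the whole ob/+ range, with ob/ob 1 below it and ob/ob 3 and 4 above it. As a percent of all FPKM, ob/ob 4 was at 0.0102, inside the ob/+ range of 0.00608 to 0.0104, and ob/ob 3 stayed above it at 0.0135. Lyz2 and Cd52 were the largest terms of the sum in ob/ob 3 (30.5 and 32 FPKM) and in ob/ob 4 (26.5 and 20.8 FPKM). Summed B cell markers (Cd79b, Ms4a1 and Cd22) were at 0.35, 5.56, 20.01 and 11.05 FPKM in ob/ob islets, against 3.76, 0.41, 1.98 and 0.54 FPKM in ob/+ islets. Summed T cell markers (Cd3e, Cd3d, Cd3g and Cd2) were at 0.24, 1.6, 5.07 and 3.39 FPKM in ob/ob islets, against 0.71, 0.21, 0.78 and 0.20 FPKM in ob/+ islets. These B and T cell sums were thus above every ob/+ library in ob/ob 2, 3 and 4 and low in ob/ob 1. Cd4, Cd8a and Cd8b1, left out of the T cell sum, were above every ob/+ library in ob/ob 3 and 4 only. In ob/ob 2 they were at 0.24, 0.21 and 0 FPKM, inside the ob/+ range for Cd4 and Cd8a and below it for Cd8b1. The sum over the whole lymphocyte list, which also holds Cd79a, was 3.19, 16.1, 52.2 and 29.8 FPKM in ob/ob islets, against 21.6, 9.10, 20.8 and 12.7 FPKM in ob/+ islets, with ob/ob 2 inside the ob/+ range. The part of lymphocyte RNA in the members' values was not tested beyond the covariate and the omissions given below.

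**Figure D1:**
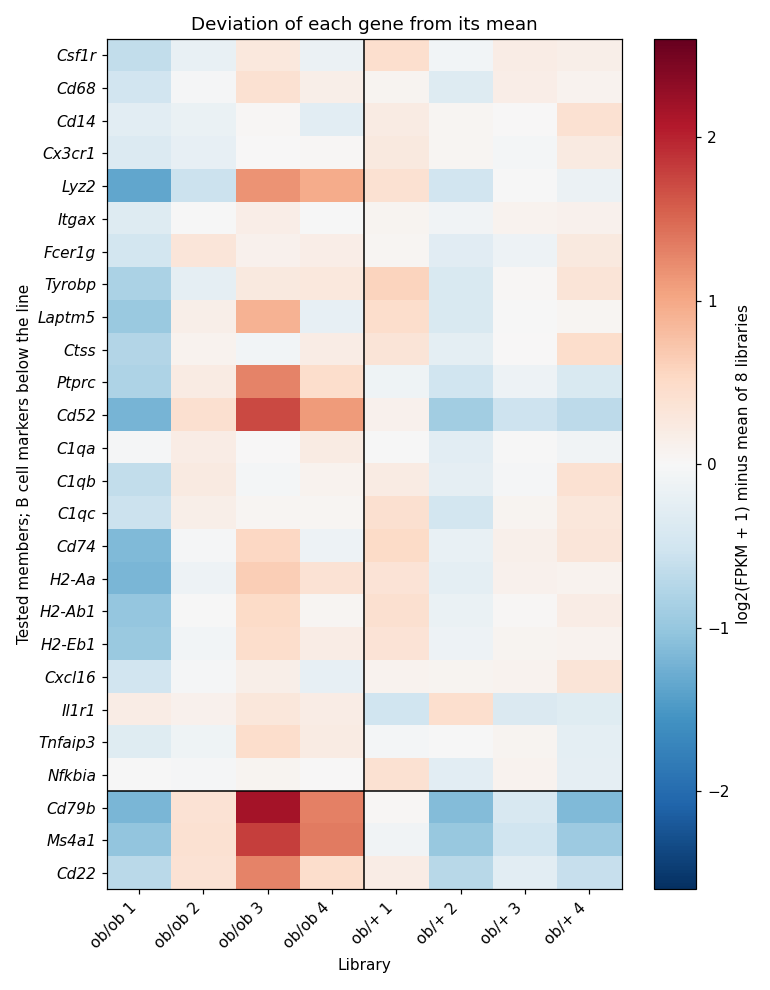
Heat map of the 23 tested members and, below the horizontal line, 3 B cell markers in each of the 8 libraries, with ob/ob left of the vertical line. Colour gives log2(FPKM + 1) minus the gene's mean over 8 libraries; most members are blue in ob/ob 1, and Ptprc, Cd52 and Lyz2 share the red of ob/ob 3 with the B cell markers.

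Macrophage identity genes were detected in every library. Csf1r encodes the CSF1 receptor that defines these cells. It was at 1.53, 2.48, 3.77 and 2.58 FPKM in ob/ob islets, against 4.34, 2.77, 3.52 and 3.40 FPKM in ob/+ islets. Values of ob/ob 1, 2 and 4 lay below every ob/+ value, and ob/ob 3 lay above 3 of them, so the groups overlapped. The log2 fold change was -0.35 ± 0.16 (SE, n = 4 each; limma adjusted p = 0.142). Without ob/ob 3 it was -0.50, with a limma adjusted p of 0.0179, in a fit that called 11.1% of genes lower. Cd14, the co-receptor for bacterial lipopolysaccharide, was at 0.60, 0.74, 1.00 and 0.62 FPKM in ob/ob islets, against 1.27, 1.01, 0.97 and 1.56 FPKM in ob/+ islets. Its groups overlapped by the single pair of ob/ob 3 and ob/+ 3, and its log2 fold change was -0.34 ± 0.13 (limma adjusted p = 0.0666). Cx3cr1, the fractalkine receptor of resident macrophages, was at 0.61, 0.78, 1.07 and 1.11 FPKM in ob/ob islets, against 1.46, 1.12, 0.99 and 1.43 FPKM in ob/+ islets. All 4 ob/ob values lay below 3 of the 4 ob/+ values, and the log2 fold change of -0.25 did not pass (limma adjusted p = 0.184).

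Other identity genes showed no common direction. Adgre1, which encodes the macrophage antigen F4/80, was at 0.47, 0.62, 0.76 and 1.04 FPKM in ob/ob islets, against 0.87, 0.68, 1.15 and 0.90 FPKM in ob/+ islets, and lay under the filter. Cd68, a lysosomal protein of macrophages, was at 1.58, 2.57, 3.79 and 3.09 FPKM in ob/ob islets, against 2.86, 1.91, 3.10 and 2.89 FPKM in ob/+ islets. The 95% interval of its log2 fold change was -0.35 to 0.35. The integrin Itgax, the adaptor chains Fcer1g and Tyrobp, the lysosomal membrane protein Laptm5 and the protease Ctss, which trims the invariant chain, had log2 fold changes of -0.27 to 0.06. The groups of all 5 overlapped, and ob/ob 1 was the lowest library for each. Fcer1g was called higher when ob/+ 4 and ob/ob 1 were both left out, at a log2 fold change of 0.32 and a limma adjusted p of 0.0223, where 8.79% of genes were called higher. Mrc1, the mannose receptor, reached 0.48 FPKM at most, Itgam, the integrin CD11b, reached 0.33 FPKM, and Aif1 reached 1.15 FPKM. These 3 genes lay under the filter, with overlapping groups.

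Ptprc, Cd52 and Lyz2 varied most between ob/ob libraries among the tested members. Ptprc encodes CD45, the surface phosphatase of all white blood cells. It was at 0.38, 1.78, 4.84 and 2.28 FPKM in ob/ob islets, against 1.21, 0.67, 1.2 and 0.81 FPKM in ob/+ islets. Libraries ob/ob 2, 3 and 4 were above every ob/+ library and ob/ob 1 was below them all. The log2 fold change was 0.58 ± 0.43 (limma adjusted p = 0.420), and without ob/ob 1 it was 0.94 (limma adjusted p = 0.0167). Cd52 encodes a small surface glycoprotein of lymphocytes and monocytes. It was at 3.35, 12.5, 32 and 20.8 FPKM in ob/ob islets, against 9.85, 4.40, 5.97 and 5.30 FPKM in ob/+ islets. Again ob/ob 1 was below and ob/ob 2, 3 and 4 were above every ob/+ library, with a log2 fold change of 1.01 ± 0.66 (limma adjusted p = 0.353) and of 1.58 without ob/ob 1 (limma adjusted p = 0.0497). That fit called 6.64% of genes higher. With both ob/ob 1 and ob/ob 3 left out, Ptprc and Cd52 were called higher as well, at limma adjusted p of 0.00619 and 0.0239, where 4.28% of genes were called higher. Lyz2, the macrophage lysozyme, was at 4.54, 8.56, 30.5 and 26.5 FPKM in ob/ob islets, against 17.6, 9, 13.0 and 11.7 FPKM in ob/+ islets. Its 95% interval for the log2 fold change ran from -1.39 to 1.63. How reads shared with its close copy Lyz1 were counted is not given in the sources used here, so the Lyz2 level is uncertain. The order of the ob/ob libraries in Ptprc and Cd52 was that of the B and T cell sums. Csf1r, Cd68, Lyz2 and H2-Aa had the same order, so it does not set Ptprc and Cd52 apart from them.

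**Figure D2:**
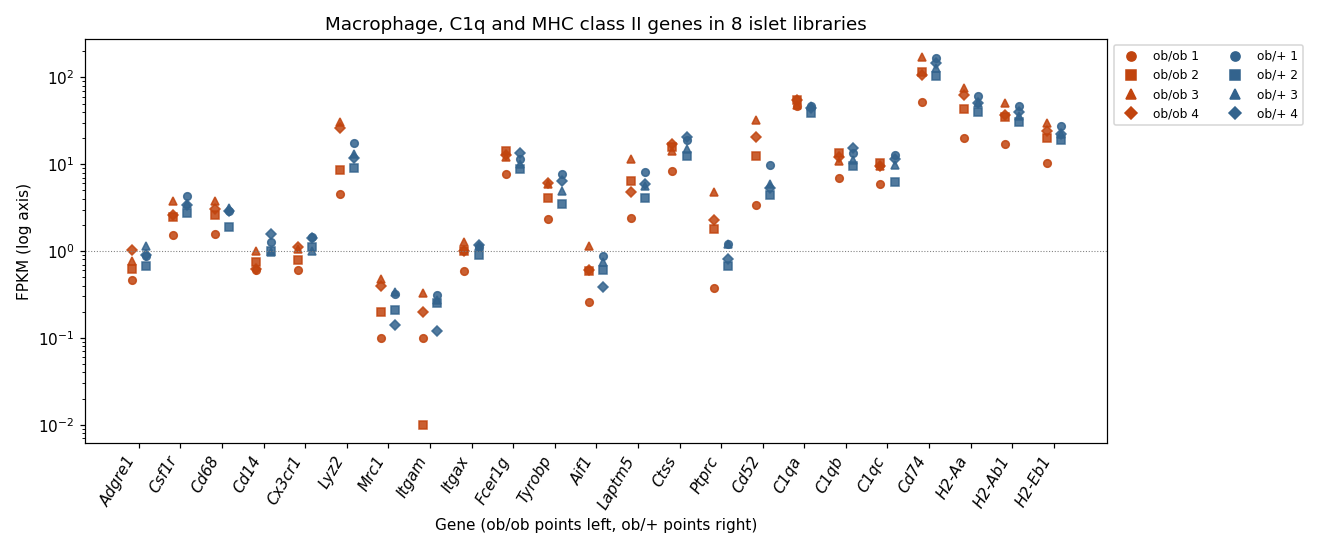
FPKM on a log axis of the 16 myeloid identity genes, 3 C1q genes and 4 MHC class II genes, with 1 point per library and ob/ob points left of ob/+ points; the dotted line marks 1 FPKM. The ob/ob 1 circle is the lowest point for most genes, and the C1qa points lie close together, between 38.8 and 55.4 FPKM.

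The C1q genes encode the 3 chains of the first component of complement, made largely by tissue macrophages, and lie side by side on chromosome 4. C1qa was at 46.3, 54.7, 47.5 and 55.4 FPKM in ob/ob islets, against 47.4, 38.8, 47.0 and 44.5 FPKM in ob/+ islets. C1qb was at 6.90, 13.5, 10.8 and 12.0 FPKM in ob/ob islets, against 13.3, 9.49, 11.1 and 15.3 FPKM in ob/+ islets. C1qc was at 5.87, 10.3, 9.56 and 9.59 FPKM in ob/ob islets, against 12.6, 6.25, 9.67 and 11.4 FPKM in ob/+ islets. The groups overlapped in all 3 genes, and the log2 fold changes were 0.19 for C1qa, -0.18 for C1qb and -0.15 for C1qc, with limma adjusted p of 0.196, 0.548 and 0.683. The chains did not keep one ratio, although they assemble together. C1qa over C1qb was 6.70, 4.04, 4.38 and 4.61 in ob/ob islets, against 3.56, 4.09, 4.25 and 2.91 in ob/+ islets. The highest ratio was in ob/ob 1, where C1qb and C1qc were at their lowest while C1qa stayed within the ob/+ range.

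MHC class II genes were among the most abundant members and shared their lowest and highest library. Cd74, the invariant chain that guides class II molecules, was at 52.7, 115, 171 and 108 FPKM in ob/ob islets, against 168, 103, 130 and 148 FPKM in ob/+ islets. H2-Aa, an alpha chain, was at 20.2, 43.4, 75.0 and 61.9 FPKM in ob/ob islets, against 60.9, 39.6, 51.3 and 50.8 FPKM in ob/+ islets. The beta chains H2-Ab1 and H2-Eb1 ranged from 17.1 to 50.2 and from 10.4 to 29.7 FPKM in ob/ob islets, against 30.8 to 47.3 and 19.2 to 27.7 FPKM in ob/+ islets. For all 4 genes ob/ob 1 was the lowest and ob/ob 3 the highest of the 8 libraries, so the ob/+ values lay inside the ob/ob range. Log2 fold changes ran from -0.39 for Cd74 to -0.15 for H2-Aa, and the 95% interval for Cd74 was -1.29 to 0.52. B cells also carry class II. With the B cell marker sum as a covariate, chosen after the data were seen, 7 members were called lower. They were the 4 class II genes, Csf1r, Tyrobp and Ctss, or 7 of 23 where 10.6% of all tested genes were called lower in that fit. In that fit Cd74 had a log2 fold change of -0.84 and a limma adjusted p of 0.00101, and Csf1r one of -0.62 and 0.00253. The B cell marker sum, which leaves out Cd79a, averaged 9.24 ± 8.40 FPKM in ob/ob islets and 1.67 ± 1.56 FPKM in ob/+ islets (SD). The covariate thus differed with genotype, and the fit cannot fully separate them. A B cell source of the class II values was not tested.

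Csf1 and Cx3cl1, genes of the ligands of myeloid receptors, fell in ob/ob islets. Csf1 encodes the growth factor that macrophages need, and lies at chr3:107741048-107760469. It was at 1.61, 2.32, 3.03 and 2.31 FPKM in ob/ob islets, against 5.36, 4.14, 3.63 and 4.25 FPKM in ob/+ islets. Every ob/ob value was below every ob/+ value, and the log2 fold change was -0.70 ± 0.14 (limma adjusted p = 0.000713). Cx3cl1 encodes fractalkine, the membrane-bound ligand of the receptor encoded by Cx3cr1, and lies at chr8:94772009-94782427. It was at 4.07, 3.99, 4.65 and 3.68 FPKM in ob/ob islets, against 8.60, 6.54, 10.6 and 7.78 FPKM in ob/+ islets. The groups were again apart, with a log2 fold change of -0.87 ± 0.13 (limma adjusted p = 2.92e-05). Csf1 and Cx3cl1 were called lower in all 22 alternative settings. They were 2 of 11 tested genes called lower in the list of other chemokines, chemokine receptors and myeloid growth factors, where 0 were called higher by limma and 1 was higher at an unadjusted p under 0.05. That gene was Cxcr4, with groups apart and a log2 fold change of 0.91 (limma adjusted p = 0.0620). Il34, of the same list, was not called, at a log2 fold change of -0.08 (limma adjusted p = 0.734). For the receptors Csf1r and Cx3cr1, means were also lower in ob/ob islets, at 2.59 ± 0.92 and 0.89 ± 0.24 FPKM, against 3.51 ± 0.65 and 1.25 ± 0.23 FPKM in ob/+ islets (SD, n = 4 each), without passing the test. With acinar markers excluded from the library totals, Csf1r, Cx3cr1, Cd14 and Cxcl16 were called lower, or 4 of 23 members where 59.8% of all tested genes were called lower.

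**Figure D3:**
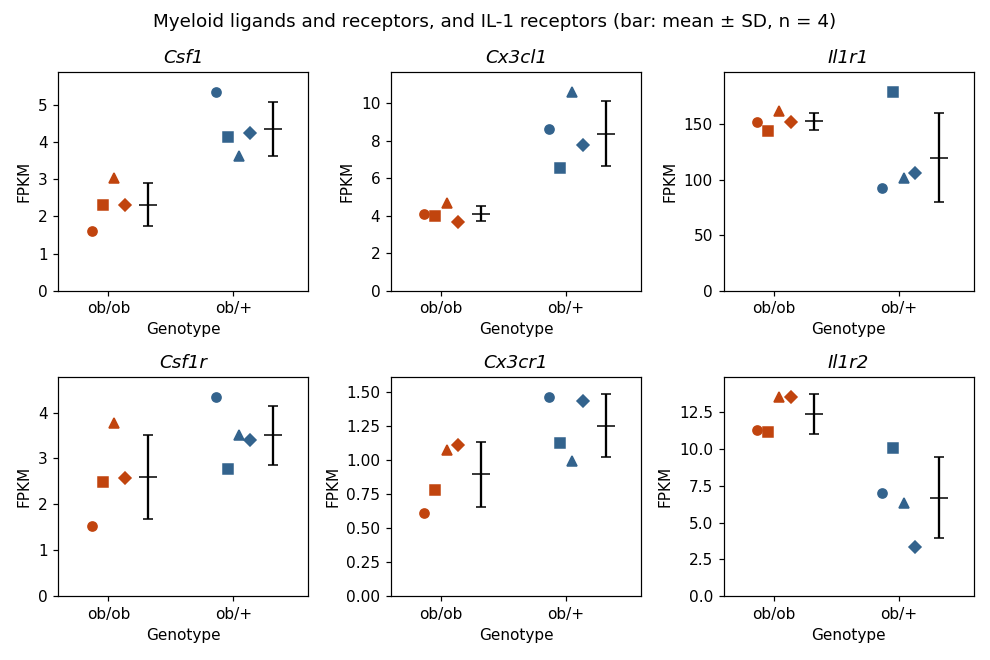
FPKM of 3 pairs of genes in each library, ob/ob left of ob/+, with the mean ± SD (n = 4 each) beside the points. Csf1 and Cx3cl1 have no overlap between groups, Csf1r and Cx3cr1 overlap, and in Il1r1 the ob/+ 2 point at 179 FPKM lies above all 7 others.

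Tnf and Ccl3 were the 2 members of 34 whose groups did not overlap, and both were higher in ob/ob islets. Among all genes with values 18.0% had groups that did not overlap, and among genes under the filter, where both lay, 4.32% were apart with ob/ob higher. Tnf encodes tumour necrosis factor and lies at chr17:35199381-35202007. It was at 0.32, 0.24, 0.11 and 0.25 FPKM in ob/ob islets, against 0.04, 0, 0.04 and 0.03 FPKM in ob/+ islets. These levels correspond to roughly 3.1 to 9.2 reads in ob/ob islets and 0 to 1.1 reads in ob/+ islets, by the rough step of 1 read. With no filter on low values, which tested 17401 genes, Tnf was called higher at a log2 fold change of 0.26 (limma adjusted p = 0.00452), where 6.03% of genes were called higher. A pseudocount of 0.1 in place of 1, chosen after the data were seen, gave 1.34 with no filter (limma adjusted p = 0.00192), so the size of the difference depends on the pseudocount. Tnf was highest in ob/ob 1 and lowest of its group in ob/ob 3, the libraries in which the MHC class II genes were lowest and highest.

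Ccl3 and Ccl4 encode the chemokines MIP-1 alpha and MIP-1 beta, which attract monocytes and T cells. Ccl3 was at 0.50, 1.37, 0.22 and 0.22 FPKM in ob/ob islets, against 0.15, 0.15, 0.15 and 0 FPKM in ob/+ islets. By the rough step, ob/ob 3 and 4 were at about 2.9 reads of Ccl3 and ob/+ 1 to 3 at 1.9 to 2.0 reads. The separation of the Ccl3 groups thus rests on very few reads. Ccl4 was at 0.52, 1.56, 0.53 and 0.36 FPKM in ob/ob islets, against 0.27, 0.45, 0.18 and 0.26 FPKM in ob/+ islets. Both peaked in ob/ob 2, and Ccl4 overlapped through the pair of ob/ob 4 and ob/+ 2. With no filter neither passed, with log2 fold changes of 0.45 for Ccl3 and 0.39 for Ccl4 and limma adjusted p of 0.206 and 0.190. Cxcl1, a neutrophil attractant, was at 0, 0.18, 0.43 and 0.43 FPKM in ob/ob islets, against 0.06, 0, 0.06 and 0.12 FPKM in ob/+ islets, and did not pass with no filter (limma adjusted p = 0.199). Libraries ob/ob 2, 3 and 4 were above every ob/+ library for Cxcl1, and ob/ob 1 was listed at 0.

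Ccl2, the monocyte attractant MCP-1, was listed at 0 in ob/ob 1 and 2 and in ob/+ 1 and 3, and reached 0.37 FPKM in ob/ob islets and 0.22 FPKM in ob/+ islets. Il1b, which encodes IL-1 beta, was at 0.13, 0.63, 0.48 and 0.60 FPKM in ob/ob islets, against 0.30, 0.57, 0.87 and 0.33 FPKM in ob/+ islets, with overlapping groups. Il6 was listed at 0 in 7 libraries and at 0.05 FPKM in ob/ob 3, about 2.0 reads by the rough step. Ccl2, Il1b and Il6 were not called in the fits with no filter. Cxcl16, a membrane-bound chemokine of macrophages, was at 1.31, 2.17, 2.58 and 1.79 FPKM in ob/ob islets, against 2.47, 2.43, 2.44 and 3.09 FPKM in ob/+ islets. Values of ob/ob 1, 2 and 4 lay below every ob/+ value and ob/ob 3 lay among them, with a log2 fold change of -0.30 ± 0.14 (limma adjusted p = 0.135). Without ob/ob 3, Cxcl16 was called lower at -0.40 (limma adjusted p = 0.0478).

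**Figure D4:**
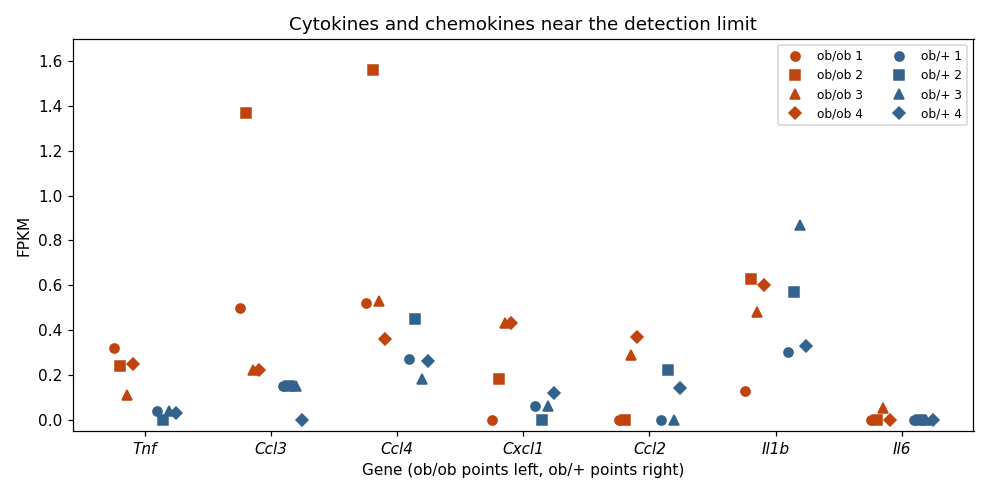
FPKM of 7 cytokine and chemokine genes that lay under the filter, 1 point per library, ob/ob points left of ob/+ points. Tnf points of ob/ob (0.11 to 0.32 FPKM) all lie above those of ob/+ (0 to 0.04 FPKM), and Ccl3 and Ccl4 peak in ob/ob 2.

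Il1r1, the signalling receptor for IL-1, was the most abundant cytokine receptor or ligand among the members and is known as strongly expressed in beta cells. It lies at chr1:40225080-40317257 and was at 152, 144, 162 and 152 FPKM in ob/ob islets, against 92.1, 179, 101 and 106 FPKM in ob/+ islets. The 4 ob/ob values were close together and above 3 of the ob/+ values, while ob/+ 2 was the highest of all 8. The log2 fold change was 0.40 ± 0.19 (limma adjusted p = 0.202, 95% interval -0.04 to 0.84). Without ob/+ 2 it was 0.61, with a limma adjusted p of 1.89e-05, where 8.39% of genes were called higher. Il1r1 was called higher at 0.52 (limma adjusted p = 0.0278) when the 10 most abundant genes were excluded from the totals, a fit that called 10.9% of genes higher. Il1r2, the decoy receptor that binds IL-1 without signalling, was at 11.3, 11.2, 13.5 and 13.6 FPKM in ob/ob islets, against 7.02, 10.1, 6.30 and 3.34 FPKM in ob/+ islets. Il1r2 rose by 0.87 ± 0.26 on the log2 scale (limma adjusted p = 0.0482), with every ob/ob library above every ob/+ library. That call was kept in 11 of 22 alternatives and was lost when any one of ob/ob 1 to 4, ob/+ 1 or ob/+ 3 was left out (limma adjusted p 0.0874 to 0.142).

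Nfkbia and Tnfaip3, feedback inhibitors of NF-kB, did not pass the test. Nfkbia encodes the inhibitor that holds NF-kB in the cytoplasm. It was at 20.1, 19.9, 21.5 and 20.4 FPKM in ob/ob islets, against 27.0, 16.7, 21.9 and 17.1 FPKM in ob/+ islets. The ob/ob values lay inside the wider ob/+ range, and the log2 fold change was 0.01 ± 0.13 (limma adjusted p = 0.960, 95% interval -0.25 to 0.28). Tnfaip3 encodes A20, the ubiquitin-editing enzyme that ends TNF receptor signals. It was at 0.67, 0.92, 1.84 and 1.41 FPKM in ob/ob islets, against 1.00, 1.05, 1.16 and 0.73 FPKM in ob/+ islets. The groups overlapped, with a log2 fold change of 0.13 ± 0.15 (limma adjusted p = 0.586).

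The promoters of Nfkbia, Tnfaip3, Cxcl1 and Il6 are shown because these 4 members, known as NF-kB targets, held a match to the NF-kB consensus near their start. Sequences are from RefSeq (GRCm38.p6), 5′ to 3′ on the gene's own strand, with the match in capitals. In Nfkbia (chr12:55492648-55492716, minus strand) the first base of the match lies 29 bases before the start, in Tnfaip3 (chr10:19015411-19015462, minus strand) 12 bases, in Cxcl1 (chr5:90891135-90891224, plus strand) 70 bases and in Il6 (chr5:30013030-30013113, plus strand) 44 bases. In Cxcl1 the capitals cover overlapping matches on both strands, and the 70 bases belong to GGAATTTCCC, the match nearer the start. The last sequence is from Csf1 (chr3:107760574-107760663, minus strand), 154 bases before the start.
Nfkbia: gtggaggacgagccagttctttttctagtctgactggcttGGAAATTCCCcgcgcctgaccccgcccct
Tnfaip3: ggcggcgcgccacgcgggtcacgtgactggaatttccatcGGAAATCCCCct
Cxcl1: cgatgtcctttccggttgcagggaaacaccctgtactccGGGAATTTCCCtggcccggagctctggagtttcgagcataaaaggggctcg
Il6: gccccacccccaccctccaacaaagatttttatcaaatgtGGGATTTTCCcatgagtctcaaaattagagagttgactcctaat
Csf1: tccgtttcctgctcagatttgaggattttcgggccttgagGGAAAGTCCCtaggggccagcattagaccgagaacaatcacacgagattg
The consensus was searched by name on both strands, in windows of 250 bases before to 50 bases after each start, and 8.46% of the 32851 promoters in the table held a match. A promoter was listed for 23 of the 34 members, and 7 of these held a match (Nfkbia, Tnfaip3, Cxcl1, Il6, Il1r1, C1qc and H2-Aa). None of the 5 matched members that were tested passed, with log2 fold changes of 0.40 for Il1r1, 0.13 for Tnfaip3, 0.01 for Nfkbia, -0.15 for C1qc and -0.15 for H2-Aa, and Cxcl1 and Il6 lay under the filter. A match describes the letters of the window and not binding.

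Counts of calls in the other pathway lists are read against the 8.21% of all tested genes called higher and the 10.6% called lower. In the list of NF-kB and TNF pathway genes, 1 of 26 tested genes was called higher and 0 lower by limma, with 0 lower at an unadjusted p under 0.05. It was Traf3, an adaptor that restrains alternative NF-kB signalling, at 9.26 ± 0.50 FPKM in ob/ob islets and 6.72 ± 1.44 FPKM in ob/+ islets (SD, n = 4 each; log2 fold change 0.43, limma adjusted p = 0.0249). The Traf3 call was kept in 14 of 22 alternatives and was lost without ob/ob 1 or without ob/ob 3 (limma adjusted p 0.0747 and 0.0552). Of 15 tested IL-1, Toll-like receptor and inflammasome genes, 1 (Il1r2) was higher and 2 were lower. The lower genes were Pycard, the inflammasome adaptor ASC, at 0.47, 0.55, 1.05 and 0.59 FPKM in ob/ob islets against 1.54, 1.15, 1.35 and 0.96 FPKM in ob/+ islets, and Il18, an inflammasome-processed cytokine, at 1.80, 1.53, 3.08 and 1.84 FPKM in ob/ob islets against 2.73, 3.04, 3.15 and 2.96 FPKM in ob/+ islets. Pycard and Il18 fell by 0.44 and 0.40 on the log2 scale (limma adjusted p = 0.0203 and 0.0454), and ob/ob 3 lay inside the ob/+ range for both. Leaving out ob/ob 1, 2 or 4 ended the Pycard call (limma adjusted p 0.0620 to 0.0779), and leaving out ob/+ 4 kept it. Without ob/ob 3, ob/+ 1, ob/+ 2 or ob/+ 3, Pycard lay under the filter and was not tested. The Il18 call was kept in 8 of 22 alternatives and lost without any one of ob/ob 1, 2 or 4 or ob/+ 1, 2 or 3 (0.0787 to 0.175).

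Of 10 tested genes of IL-6 family signalling, 1 rose and 3 fell. Socs3, the feedback inhibitor of cytokine receptors that use STAT3, was at 4.54, 7.58, 6.14 and 4.75 FPKM in ob/ob islets, against 2.51, 4, 3.27 and 2.76 FPKM in ob/+ islets. Every ob/ob library was above every ob/+ library, and the log2 fold change was 0.70 ± 0.15 (limma adjusted p = 0.00133). Il6st, the shared receptor chain gp130, averaged 6.31 ± 1.24 FPKM in ob/ob islets and 10.8 ± 2.27 FPKM in ob/+ islets. Lifr, the receptor chain for leukaemia inhibitory factor, averaged 8.12 ± 0.42 FPKM in ob/ob islets and 14.5 ± 2.13 FPKM in ob/+ islets. The kinase gene Jak1, whose product relays these receptors' signals, averaged 18.5 ± 1.69 FPKM in ob/ob islets and 25.5 ± 2.71 FPKM in ob/+ islets. Their log2 fold changes were -0.69, -0.76 and -0.43, with limma adjusted p of 0.00202, 4.86e-05 and 0.00604, and the groups of all 3 were apart. Jak1 lost its call when the 10 most abundant genes were excluded from the totals (limma adjusted p = 0.119).

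Of 18 tested genes in the list of other macrophage genes, 0 were called higher by limma, with 0 higher at an unadjusted p under 0.05, and 4 were called lower, among them Arg1, Apobec1 and Csf2ra. Arg1, arginase of alternatively activated macrophages and of liver, averaged 7.50 ± 1.00 FPKM in ob/ob islets and 13.4 ± 1.62 FPKM in ob/+ islets (SD, n = 4 each). Apobec1, the editing enzyme of apolipoprotein B mRNA, averaged 4.36 ± 0.65 FPKM in ob/ob islets and 10.9 ± 3.26 FPKM in ob/+ islets. Csf2ra, a chain of the GM-CSF receptor, averaged 20.0 ± 3.49 FPKM in ob/ob islets and 30.4 ± 4.17 FPKM in ob/+ islets. Log2 fold changes were -0.76 for Arg1, -1.11 for Apobec1 and -0.58 for Csf2ra, with limma adjusted p of 6.79e-05, 0.000431 and 0.00177, and these 3 were called lower in all 22 alternatives. Csf2ra was above Csf1r in every library, and Csf2rb, of the same list as Csf2ra, reached 1.27 FPKM at most. Arg1 and Csf2ra were lowest in ob/ob 4, where most tested members were lowest in ob/ob 1. Which cells hold the Arg1, Apobec1 and Csf2ra transcripts was not tested. Among 4 tested genes of the MHC class II pathway, H2-DMa, which loads peptides onto class II, was called higher at 4.96 ± 1.25 FPKM in ob/ob islets and 3.24 ± 0.79 FPKM in ob/+ islets (limma adjusted p = 0.0282). That call was kept in 10 of 22 alternatives, and was lost without ob/ob 2, ob/ob 3, ob/+ 2, ob/+ 3 or ob/+ 4 (limma adjusted p 0.0581 to 0.0904).

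Markers of other cells were read beside the members. None of 12 endothelial markers was called (Plvap at 103 ± 22.3 FPKM in ob/ob islets and 87.7 ± 4.10 FPKM in ob/+ islets), with 0 at an unadjusted p under 0.05 in limma. None of 3 tested lymphocyte markers was called either, again with 0 at an unadjusted p under 0.05, and the log2 fold changes were 1.33 for Cd79b, 0.70 for Cd22 and -0.66 for Cd79a. Of the neutrophil and mast cell markers 11 of 13 were under 1 FPKM in every library, and Kit was the 1 gene tested and called, lower in ob/ob islets at -0.56 (limma adjusted p = 0.00523). Kit was at 1.64 to 4.25 FPKM, where Cpa3, Mcpt4 and Tpsb2 of that list reached 0.12, 0.18 and 0.27 FPKM at most. Which cells hold the Kit transcripts was not tested. In the same list S100a8, Elane, Mpo, Camp, Ngp, Mcpt4 and Tpsb2 were listed at 0 in ob/ob 1 and 2 and in every ob/+ library. They were at 0.05 to 0.48 FPKM in ob/ob 3 and 4, whereas Kit and Csf3r were highest in ob/+ 3. The part of neutrophil and mast cell RNA in the members' values was not tested. Fibroblast, stellate and pericyte markers gave 2 higher and 3 lower of 10 tested, led by Col1a2 at -1.02 (limma adjusted p = 6.89e-06) and Rgs5 at 0.62 (limma adjusted p = 7.60e-05).

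**Figure D5:**
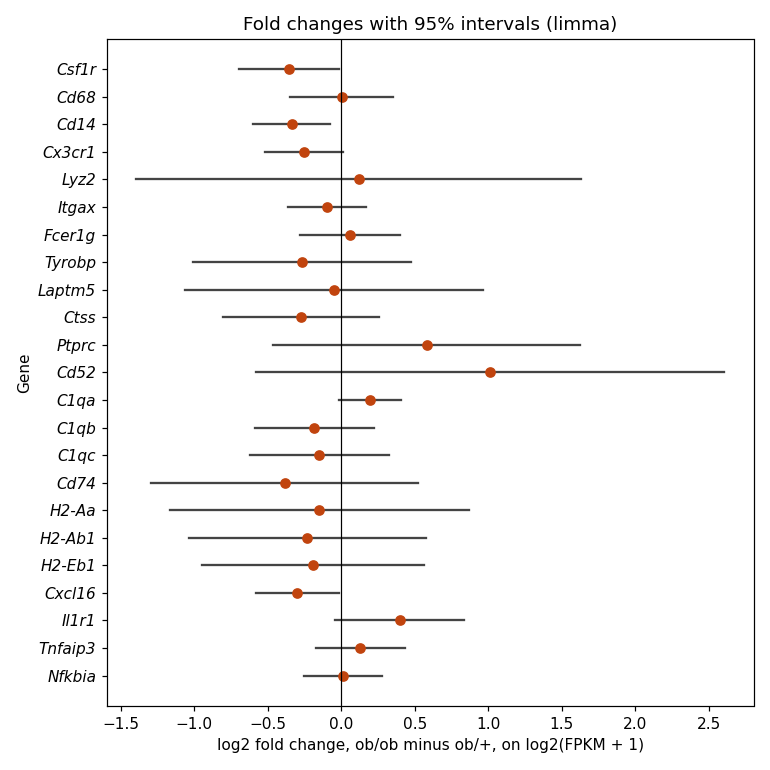
Log2 fold change, ob/ob minus ob/+, of the 23 tested members with its 95% interval from limma, on the log2(FPKM + 1) scale. The intervals of Csf1r, Cd14 and Cxcl16 lie below 0 without adjustment for the number of genes, and those of Cd52, Lyz2, Ptprc, H2-Aa and Laptm5 are the widest.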

How the data were processed

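Total RNA of 8 islet libraries was measured (4 ob/ob, 4 ob/+, grouped by labelled genotype). The authors deposited 1 value per gene and library, which is FPKM as judged from the values, since neither the file headers nor the labels name the unit. The submitters' processing notes list Trimmomatic 0.36 and DESeq2 1.20.0, with builds mm10 and GRCm38 but no role for any of them. The tools for alignment and quantification were not given in the sources used here. Of 20715 listed genes 3314 had no value. FPKM is relative to the library total, so a larger insulin or acinar share lowers all other values, and no counting intervals can be given. The summed FPKM of all genes was not equal between groups, at a mean of 965670 in ob/ob and 853074 in ob/+ libraries. The lowest ob/ob sum, 920734, was above the highest ob/+ sum, 880570. No alternative setting scaled the libraries to equal sums over all genes, so small fold changes are uncertain by this difference.

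Every gene that reached 1 FPKM in 4 or more libraries entered a two-sided limma fit on log2(FPKM + 1), adjusted over all tested genes (limma 3.58.1 with robust, trended eBayes, statmod 1.5.0, R 4.3.3). The procedure was tested on simulated data. Fold changes on this scale understate those of low genes. Tables were joined in Python 3.11.15 with pandas 2.3.3 and NumPy 2.4.6. The members, the lists and the alternatives were chosen with earlier results of these data known. Every member is accounted for. Some genes of the other lists are not reported here by name. From each other list the called genes, or else the 2 with the smallest p, are named, with the most abundant markers of other cells. Genes named in the closing observations, and Ms4a1, Cd3e, Cd3d, Cd3g and Cd2 in the lymphocyte sums, were chosen after their values were seen. So were Cd4, Cd8a, Cd8b1, Csf2rb, Il34, Cxcr4, Cpa3, Mcpt4 and Tpsb2, which are named beside other results. The same holds for S100a8, Elane, Mpo, Camp, Ngp and Csf3r. Alternatives covered scaling, filter, pseudocount, covariates, a replicate block and leaving out libraries. No libraries were duplicates (correlation of log2 values 0.978 to 0.993 within groups). Gene positions are from the GENCODE annotation of GRCm38.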

Additional observations from a re-analysis of the deposited data

Results flagged for a closer look

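In 97 groups of 4 libraries, covering the members and the named pathway genes, 7 had 1 library far from the other 3, by a gap to the nearest library that was large beside the group's range. Chance alone picks out about 1 in 20 such groups, and no explanation was tested. Il1r1 was at 179 FPKM in ob/+ 2, where the other ob/+ libraries were at 92.1 to 106 FPKM. C1qc was at 5.87 FPKM in ob/ob 1, where the other ob/ob libraries were at 9.56 to 10.3 FPKM. Ccl4 was at 1.56 FPKM in ob/ob 2, the library that was also the highest for Ccl3. Cxcl16 was at 3.09 FPKM in ob/+ 4, and Jak1 was at 21.4 FPKM in ob/+ 4, the library with the largest acinar share. Ccl3 was listed at 0 in ob/+ 4, where the other ob/+ libraries were at 0.15 FPKM, and Il6 was listed at 0.05 FPKM in ob/ob 3 and at 0 in the other 3 ob/ob libraries.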

How the results depend on the processing

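Limma was rerun under 22 alternative settings. The count of members called higher (0) became 1 when the 10 most abundant genes were excluded from the scaling, with no filter on low values, with a pseudocount of 0.1 and no filter, and without both ob/+ 4 and ob/ob 1, became 2 without both ob/ob 1 and ob/ob 3, and ran from 0 to 2 when 1 library was left out. The count of members called lower (0) became 4 with acinar markers left out of the scaling (Csf1r, Cd14, Cx3cr1 and Cxcl16, where 59.8% of all tested genes were called lower) and 7 with the B cell marker covariate, and ran from 0 to 2 with 1 library left out. The median log2 fold change of tested members (-0.15) was -0.41 with acinar markers left out of the scaling, 0.10 without both ob/+ 4 and ob/ob 1, -0.39 with the B cell marker covariate, and from -0.23 to 0.063 with 1 library left out, the highest without ob/ob 1. All genes called (2208) became 3429 with median centring, 3480 with upper-quartile scaling, 7514 with acinar markers left out, 4000 without both ob/+ 4 and ob/ob 1, and 1217 without both ob/ob 1 and ob/ob 3, and ran from 1434 without ob/+ 1 to 4832 without ob/+ 4. The cause was not tested. Of 23 tested members 9 were called in none of the 22 settings, 8 kept their sign in all of them and 15 changed sign without a call in at least 1. The pseudocount of 0.1 without a filter, the B cell covariate and the omission of ob/ob 1 and 3 together were chosen after the data were seen.

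With a replicate block, 0 members were called higher and 0 lower, 2674 genes were called and the median was -0.15. Of the other genes named, Il1r2 and H2-DMa lost their calls (limma adjusted p = 0.125 and 0.0546). Same-numbered libraries correlated at -0.22, 0.21, 0.17 and 0.12 in their deviations from the group means. The highest correlation with another number was 0.19, 0.19, 0.15 and 0.02, so numbers 2, 3 and 4 correlated most with their own number and number 1 did not. The numbers were not taken to pair the libraries, because number 1 did not pair. Whether numbers 2, 3 and 4 share a pairing or batch was not tested. For the cytokines listed under 1 FPKM, depth limits what can be detected.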

Other observations

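Among other genes of the lists, Cxcl13, H2-DMb2 and Marco were highest in the ob/ob library in which the B cell markers peaked, ob/ob 3. This was common in their lists. With ties included, ob/ob 3 was highest for 16 of 16 lymphocyte markers, 23 of 39 other macrophage genes and 6 of 7 MHC class II pathway genes. In the list that holds Cxcl13 it was highest for 7 of 26 genes, and among acinar markers for 0 of 35. Cxcl13, the chemokine that attracts B cells, was at 0.10, 3.98, 11.2 and 11.01 FPKM in ob/ob islets, against 1.66, 0.25, 0.50 and 0.10 FPKM in ob/+ islets. H2-DMb2, a chain of the class II peptide loader, was at 0, 2.34, 9.06 and 5.99 FPKM in ob/ob islets, against 1.85, 0, 1.18 and 0 FPKM in ob/+ islets. Reads shared with its close copy H2-DMb1 make this level uncertain. Marco, a scavenger receptor of macrophages, was at 0, 0.65, 4.48 and 0.55 FPKM in ob/ob islets, against 3.43, 0, 1.51 and 0 FPKM in ob/+ islets. In all 3 genes ob/+ 1 was the highest of the ob/+ libraries, and for Marco it was above ob/ob 2 and ob/ob 4. Cd79a, the B cell receptor chain left out of the B cell sum, was at 2.18, 6.34, 17.6 and 10.7 FPKM in ob/ob islets, against 15.1, 7.81, 16.8 and 11.6 FPKM in ob/+ islets, and did not share the low ob/+ levels of Cd79b. The differences of Cxcl13 and H2-DMb2 did not pass (limma adjusted p = 0.213 and 0.335).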
